A study of Mus musculus with 2 samples.

Results

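Voltage-gated sodium and calcium channels carry the action potential and turn it into calcium entry. The genes examined here encode their pore-forming and auxiliary subunits. They were chosen by symbol alone, as the GENCODE M21 protein-coding genes named Scn with a number and a or b, and those named Cacna1, Cacna2d, Cacnb or Cacng. The rule gave 40 genes, 14 of sodium channels and 26 of calcium channels, of 21911 protein-coding genes. The samples were 2 biological replicates of MN1, an immortalized mouse cell line of strain B6NCrl, both given 10 nM methyltrienolone, a synthetic androgen. DNase-seq was used, which cuts accessible DNA in nuclei and finds open chromatin as clusters of cuts. The labels name no tissue of origin, sex or age, and no untreated library was analysed here, so nothing below is an effect of the androgen. With 1 group there was no comparison between conditions, and all values are those of treated cells.

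A sodium channel has a single large pore protein (the Scn genes ending in a) that is joined by small single-span beta subunits (those ending in b). A calcium channel of the high-voltage class has a pore protein (Cacna1), a cytoplasmic beta subunit (Cacnb) that brings the pore to the membrane, and an extracellular alpha2delta subunit (Cacna2d), while T-type pores work without them. Most Cacng genes encode transmembrane regulators of AMPA receptors, known as TARPs, and only some encode a calcium channel gamma subunit. In neurons, several of these genes have many alternative first exons, and sodium channel genes were among the first in which RE1, the binding site of the repressor REST, was described.

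The deposited lists held 189648 peaks for replicate 1 and 170745 for replicate 2, each 150 bp wide, and 158286 and 142225 hotspots, which are wider enriched stretches. The number of reads behind them is not given in the lists, so depth is unknown. Each peak has the authors' score, a whole number from 1 to 150 of unstated meaning. It is read only within its own list, also as a percentile among all peaks of that list, where the median score was 53 in replicate 1 and 51 in replicate 2. A promoter is called open where a region shared by both replicates (peaks with at least 1 bp in common) came within 1 kb of an annotated transcription start site of the gene. A promoter without a called peak is not shown to be closed. Of marker genes, 6 of 6 neuronal ones had an open promoter, against 1 of 5 of skeletal muscle (Ryr1), 2 of 4 of heart muscle (Tnnt2 and Tnni3), 1 of 4 of glia (Gfap) and 0 of 4 of photoreceptors.

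Of the 40 channel genes, 26 (65%) had an open promoter, beside 59.5% of all protein-coding genes. In replicate 1 alone 27 (67.5%) had a promoter peak, beside 61.9% of all genes, and in replicate 2 alone 27, beside 60.8%. Hotspots of both replicates lay at 26 promoters, beside 59.9% of all genes. Each of these shares lay near that of genes in general, and none of them was tested.

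The strongest promoter peaks of 4 of the best-scored genes are shown because they differ in base composition although their scores are alike. They are the 150 bp peaks of replicate 1 in the mm10 assembly, on the strand of the gene, with CpG dinucleotides in capitals. The pore gene Cacna1b (chr2:24763156-24763305, minus strand) has 21 CpG and 75.3% G and C. The beta subunit gene Scn3b (chr9:40269396-40269545, plus strand) has 9 and 64%. The pore gene Scn9a (chr2:66634696-66634845, minus strand) has 12 and 68%, and the pore gene Scn8a (chr15:100870536-100870685, plus strand) has 28 and 82.7%.
Cacna1b: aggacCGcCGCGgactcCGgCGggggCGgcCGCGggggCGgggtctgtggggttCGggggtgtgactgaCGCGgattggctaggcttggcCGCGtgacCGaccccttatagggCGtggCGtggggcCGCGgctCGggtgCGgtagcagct
Scn3b: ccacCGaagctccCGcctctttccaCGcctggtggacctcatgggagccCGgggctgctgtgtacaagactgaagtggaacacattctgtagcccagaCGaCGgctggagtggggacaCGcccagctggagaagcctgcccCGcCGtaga
Scn9a: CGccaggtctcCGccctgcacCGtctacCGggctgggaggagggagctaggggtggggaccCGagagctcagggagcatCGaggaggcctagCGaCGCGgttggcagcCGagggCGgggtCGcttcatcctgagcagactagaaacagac
Scn8a: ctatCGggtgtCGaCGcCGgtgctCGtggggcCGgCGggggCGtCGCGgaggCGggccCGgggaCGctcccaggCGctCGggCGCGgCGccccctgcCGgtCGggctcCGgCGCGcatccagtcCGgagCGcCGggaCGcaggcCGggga

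Among the sodium channel pores, all 4 of brain neurons were open, Scn1a, Scn2a, Scn3a and Scn8a. Of the 3 pores of peripheral nerve, Scn9a, known from sensory and sympathetic neurons, was open, while Scn10a and Scn11a, both of pain-sensing neurons, had no promoter peak in either replicate. Scn4a, the skeletal muscle pore, had none either. Scn9a scored 138 in replicate 1 and 126 in replicate 2. Scn2a scored 135 and 128, and Scn8a, the pore of nodes of Ranvier, 134 and 132. These 3 genes lay close together near the top of both lists, with every percentile above 94. Such ranks are near those of open promoters in general, whose smaller percentile of both replicates had a median of 94.5. Scn3a, which is used mostly in the embryonic brain, scored 87 and 86, and Scn1a, the pore of inhibitory interneurons, 79 and 71. Both were lower than the 3 above in each replicate. Scn7a, a sodium sensor rather than a voltage-gated pore, had the weakest open promoter of all 26, with scores of 30 and 32.

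The sodium channel beta subunits differed in promoter state. Scn3b scored 143 and 128, with overlapping top peaks in both replicates. Scn2b and Scn4b, which lie next to each other at chr9:45117782-45154152, had no promoter peak or promoter hotspot in either replicate. Scn4b lacked a peak although its 5' end is rich in CpG.

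Of the calcium channel pores, 8 of 10 were open, and all 3 T-type pores were among them. The P/Q-type pore Cacna1a scored 142 and 145, the highest of all channel genes in replicate 2. The peaks behind these scores lay near the start of a transcript without a coding sequence, and no peak lay at its coding starts. The N-type pore Cacna1b, which like Cacna1a drives transmitter release, scored 143 and 129. The R-type pore Cacna1e had no promoter peak in either replicate. Among the T-type pores, which open near the resting potential, Cacna1h scored 130 and 134, Cacna1g 105 and 90, and Cacna1i 102 and 94. Of the L-type pores, Cacna1c, the main pore of heart and brain, scored 125 and 109, and Cacna1d, known from pacemaking and endocrine cells, 80 in both replicates. The peaks behind the 80 of Cacna1d lay at the start of a transcript without a coding sequence, 445994 bp downstream of the 5' end, and at its coding start the scores were 37 and 42. The skeletal muscle pore Cacna1s, whose peaks likewise lay at a start of that kind, scored 50 and 74. The retinal pore Cacna1f, on chromosome X, had a promoter peak in replicate 2 only, with a score of 37 and a hotspot of 198 bp.

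Of the alpha2delta genes, 2 of 4 were open: Cacna2d2 scored 91 and 80, and Cacna2d4, used in the retina, 90 and 89. In both genes these peaks lay near the start of a transcript without a coding sequence, and neither gene had a peak at a coding start. Cacna2d1 and Cacna2d3 had no promoter peak; Cacna2d1 and Cacna2d2 encode the subunits bound by gabapentin. Of the beta subunits, Cacnb3 scored 132 and 125, Cacnb1 121 and 107, and Cacnb4 84 and 86. Cacnb2, the main beta subunit of the heart, had a peak in replicate 1 only, with a score of 22 at the 6.57 percentile and a hotspot of 78 bp. Among the 8 genes of the gamma family, 4 were open, all of them TARPs. Cacng7 scored 130 and 122, Cacng3 108 and 96, and Cacng8 67 and 78. For Cacng4 the top peaks scored 90 and 56 at different places, and its best region held in both replicates scored 72 and 56. The TARP genes Cacng2, which encodes stargazin, and Cacng5 had no promoter peak, nor had Cacng1 and Cacng6, whose proteins are calcium channel subunits of muscle.

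**Figure D1:**
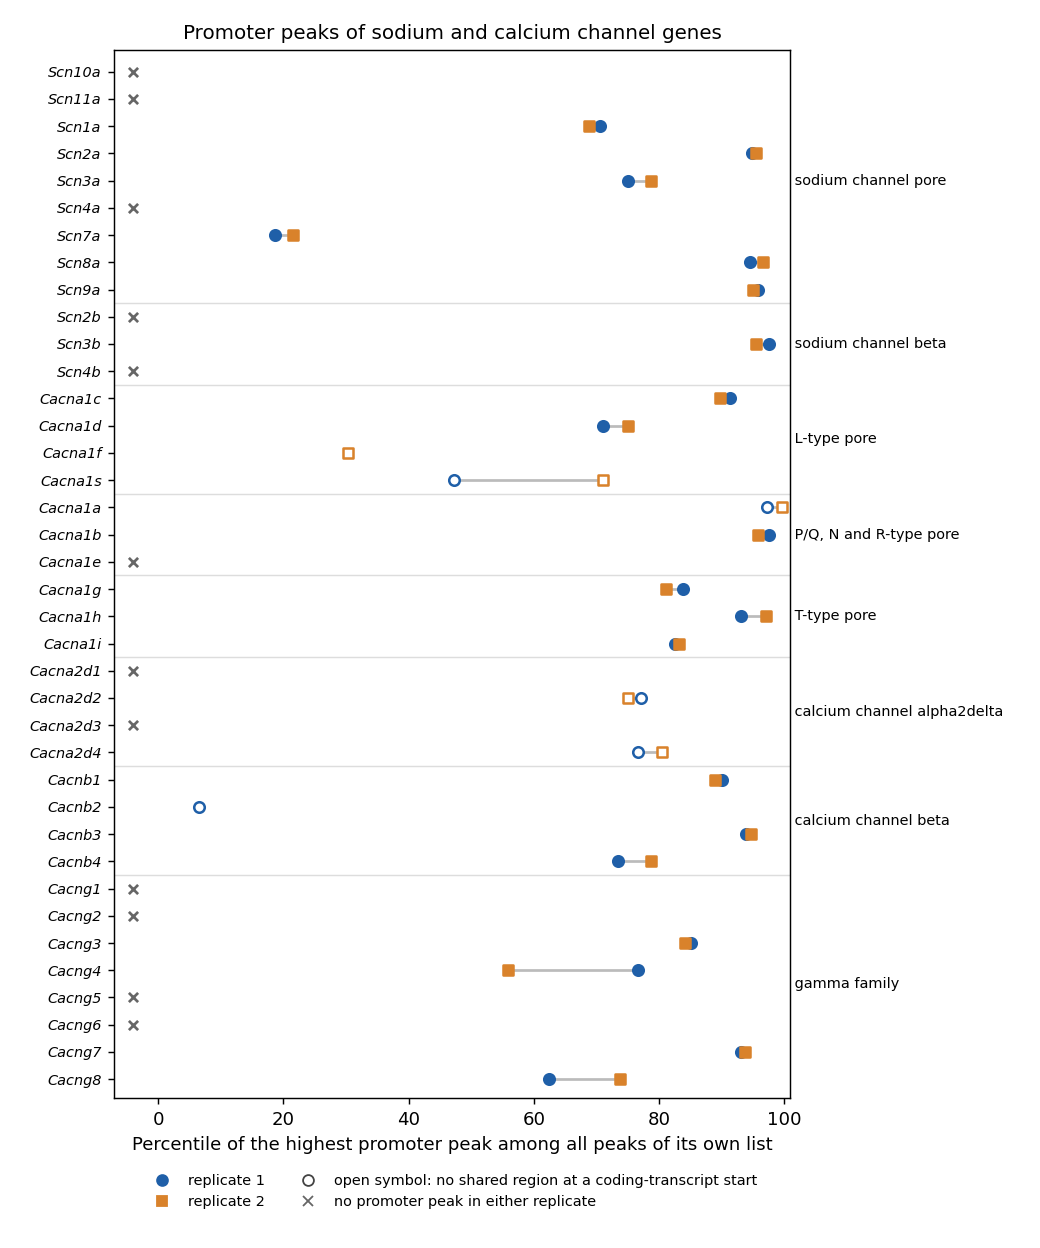
Percentile of the highest promoter peak among all peaks of its own list (x axis, 0 to 100) for the channel genes by subunit class, with circles for replicate 1, squares for replicate 2, open symbols for genes without a shared region at a coding-transcript start and crosses for the 12 genes without a promoter peak. Most pairs of symbols lie close together, with Cacna1s and Cacng4 apart, and the open symbols of Cacna1a lie at the far right.

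The promoters called open ranged over the lists from the weak peak of Scn7a to the strong one of Cacna1a. The latter lay near the start of a transcript without a coding sequence. The median rank of the open channel promoters was below that of open promoters in general. The smaller of the percentiles of both replicates at the best shared region had a median of 83.3 over the 26 open channel genes (quartiles 71.7 and 93.7), beside 94.5 over all 13037 open genes (87.4 and 97.4). The median top score was 110.5 in replicate 1 and 95 in replicate 2 for open channel genes, beside 137 and 128 for all open genes. Replicate 1 had the higher score in 19 of the 26 and replicate 2 in 6. Over all open genes, replicate 1 had the higher top score in 86.5%. The percentile was higher in replicate 1 in 12 of the 26 and in replicate 2 in 14. The top peaks of both replicates overlapped in 24 of the 26, a share not counted over all open genes. Spearman's rho between the replicates' percentiles was 0.885 over the 26 genes, as a description, beside 0.925 over all open genes. Each open gene had a median of 3 shared promoter regions, among channel genes and among all genes.

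Many channel genes were open at an internal start and not at their 5' end. The best region was centred within 1 kb of the annotated 5' end in 16 of the 26 open genes and farther away in 10, and no start of another protein-coding gene lay within 1 kb of any of the 26. Counting the 5' end alone, 20 channel genes (50%) were open, beside 55% of all genes. Counting starts of protein-coding transcripts alone, 22 (55%) were open, beside 57.9% of all genes. Channel genes offered more starts, with a median of 5.5 annotated starts beside 3 for all genes. The open ones had 6.5 and those not open 2.

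The 4 genes that differ between the count over all starts and that over coding starts are Cacna1a, Cacna1s, Cacna2d2 and Cacna2d4. None had a peak within 1 kb of a coding start in either replicate. The strongest region of Cacna1a, chr8:84639536-84639705, lay 251181 bp downstream of the gene's 5' end, 630 bp past the start of a transcript without a coding sequence. Its high rank thus belongs to the 3' part of the gene. In Cacna1s the region lay 63601 bp downstream of the 5' end, in Cacna2d2 122639 bp and in Cacna2d4 96875 bp. For these 4 genes the peaks do not show an open coding promoter, and whether the regions act as promoters was not tested. Cacna1d was open at a coding start, but not at the 5' end: the region at its coding start scored 37 and 42 and lay 137884 bp downstream of the 5' end.

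Among the brain sodium channels, Scn2a had 6 shared promoter regions. The region at its 5' end, chr2:65620656-65620825, scored 81 and 70, whereas the strongest, chr2:65668476-65668645, lay 47790 bp downstream and scored 135 and 128. Scn1a was alike in layout, with its strongest region, chr2:66410016-66410225, 30719 bp downstream of the 5' end, where the scores were only 25 and 39. Cacna1c had its strongest region, chr6:119109036-119109225, 87287 bp downstream, and scores of 38 and 32 at the 5' end. In these 3 genes the internal start carried the higher score in both replicates. Scn8a was the opposite, with its strongest region 763 bp from the 5' end and 1 weaker region 100803 bp downstream that scored 73 and 52. Cacnb3 had the most shared promoter regions of any channel gene, 8 within a few kilobases.

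**Figure D2:**
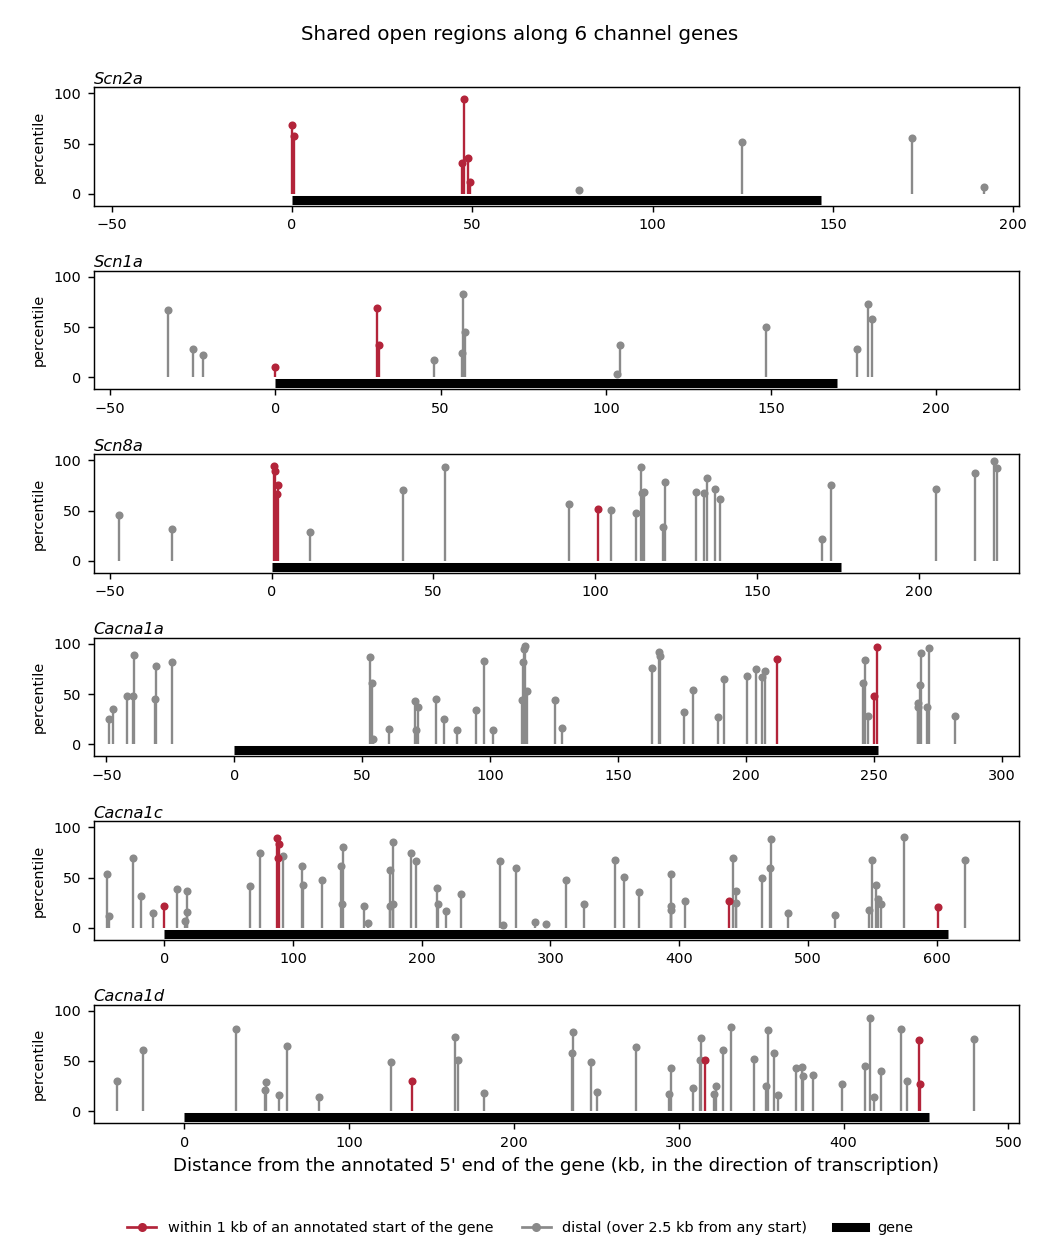
Shared regions along Scn2a, Scn1a, Scn8a, Cacna1a, Cacna1c and Cacna1d by distance from the annotated 5' end (x axis, kb in the direction of transcription), with the smaller of both replicates' score percentiles as height, red for regions within 1 kb of an annotated start and grey for distal regions. The highest red stem stands near 0 kb in Scn8a and well inside the gene in the other 5, at the far end of Cacna1a and Cacna1d.

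Promoter state was also set beside the CpG content of the 5' end, with no test of the shares. The CpG ratio is the number of CpG dinucleotides over that expected from the C and G content, here in the 500 bp on either side of the 5' end. Of the 14 channel genes with a ratio of at least 0.6, 8 (57.1%) were open at the 5' end, beside 86% of all genes with such a ratio. Among those not open were Cacna2d1 (0.915), Cacna2d3 (0.822), Cacng2 (0.757), Cacna2d2 (0.747) and Scn4b (0.744). Of the 26 channel genes below 0.6, 12 (46.2%) were open at the 5' end, beside 28.7% of all genes below it. The median ratio was 0.453 for channel genes open at the 5' end and 0.394 for those not open, beside 0.727 and 0.218 over all genes. Of the 4 alpha2delta genes, 3 had a ratio of at least 0.6, and none of these 3 was open at the 5' end.

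Related channel genes lie in clusters. The sodium channel cluster at chr2:65457118-66784914 holds Scn3a, Scn2a, Scn1a, Scn9a and Scn7a, and all 5 were open, although their top scores ran from 30 to 138 in replicate 1. In the gamma cluster at chr11:107703218-107915055, Cacng4 was open while its neighbours Cacng1 and Cacng5 were not. In that at chr7:3332955-3435667, Cacng7 and Cacng8 were open and Cacng6 was not. Neighbours thus differed in promoter state in 2 of these 3 clusters, which are not all the clusters of channel genes. The same was not counted for neighbouring genes in general.

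Distal regions were counted where peaks of both replicates overlapped over 2.5 kb from any start of any gene, in the gene body and the 50 kb on either side. All 40 channel genes (100%) had at least 1, beside 79.9% of all genes. The windows are long, since the median channel gene is 105 kb and the median protein-coding gene 17.4 kb. Per 100 kb of window, the median was 4.96 regions for channel genes and 3.30 for all genes. It was 6.01 for open channel genes beside 4.87 for all open genes, and 1.75 for channel genes not open beside 0.801 for all genes not open. In all there were 496 distinct regions at channel genes, 310 in their bodies and 186 in the flanks alone, and 355 of the 496 were intronic. Peaks of replicate 1 alone gave 747 distal regions and those of replicate 2 alone 664, so the number depends on requiring both.

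The genes with the most distal regions were Cacna1c with 59, Cacna1a with 49, Cacna1d with 43, Cacna1i with 36, Cacng2 with 28 and Cacna1h with 25. Per 100 kb the order was Cacna1i with 17.1, Cacna1h with 15.7, Cacna1a with 13.9, Cacnb1 with 13.2, Scn3b with 13.1 and Cacng2 with 12.3. Of the T-type pores, Cacna1h and Cacna1i were thus among the most densely covered channel genes, and Cacna1g had 6.03 per 100 kb. Cacng2 had the most of the 12 genes without a promoter peak, 20 of its 28 distal regions lay in its body, and the highest, chr15:78078936-78079105, scored 133 and 109. Scn4a with 7.42 and Cacng1 with 5.30 per 100 kb, also without a promoter peak, lay above the median channel gene as well. The fewest per 100 kb were at Cacnb2, with 1 region in all (0.206), Cacna2d1 with 2 (0.370), Cacna1e with 3 (0.505) and Scn11a with 1 (0.582), none of which had an open promoter. The replicates differed most in number at Scn8a, with 53 distal peaks in replicate 1 and 31 in replicate 2, and at Cacna1c, with 96 and 76. Replicate 1 had more distal peaks in 24 channel genes and replicate 2 in 12, beside 49.5% of all genes with more in replicate 1.

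**Figure D3:**
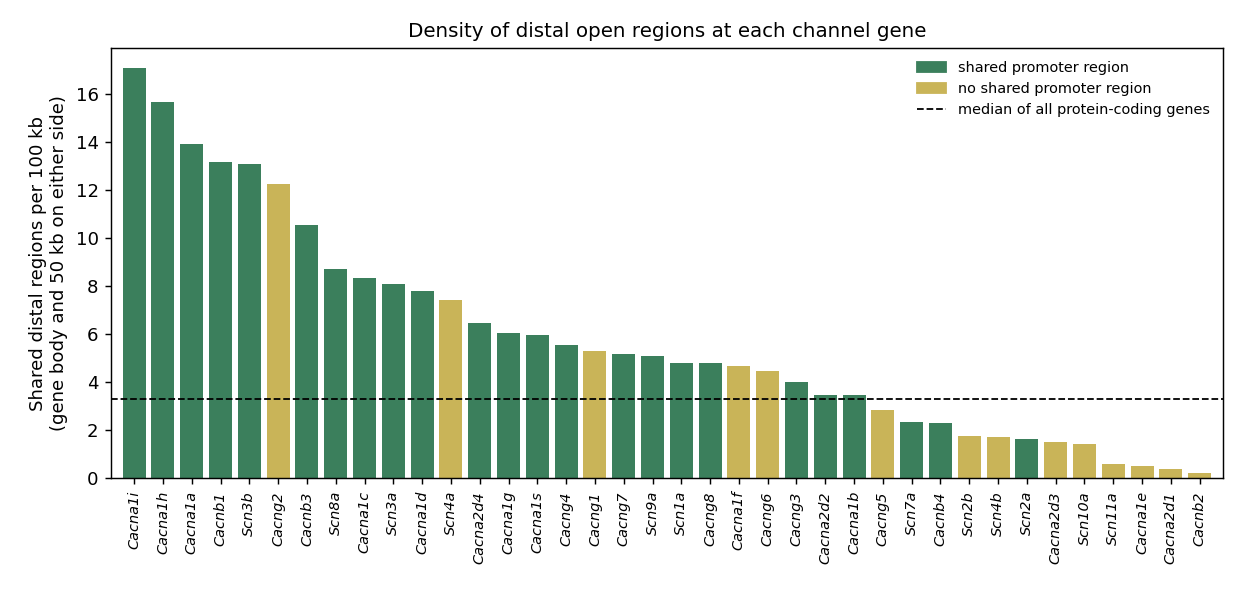
Shared distal regions per 100 kb of gene body and 50 kb flanks (y axis) for the channel genes in falling order, green with and yellow without a shared promoter region, with a dashed line at the median of all protein-coding genes, 3.30. Green bars fill most of the left side, where Cacng2 at 12.3 is the tallest yellow bar, and yellow bars most of the right end.

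The highest-ranked distal region lay 14644 bp from the nearest start at chr15:101093136-101093285, between genes within 50 kb of Scn8a, with scores of 149 and 145. In an intron of Cacna1a, chr8:84502076-84502245 scored 143 and 140, and its neighbour chr8:84501736-84501885 scored 135 and 126. Another region, chr8:84660036-84660205, lay past the 3' end of Cacna1a, 2731 bp from the nearest start, and scored 139 and 136. The window of Cacna1a, its body and flanks, thus held 3 of the 6 highest. In the window of Cacnb3, chr15:98672656-98672805 in an intron of Rnd1 scored 146 and 130, and chr15:98582516-98582685 in an intron of 4930415O20Rik scored 134 and 127. A region in the window of a channel gene is not thereby assigned to it, since 26 lay in the windows of more than 1 channel gene and others lay inside other genes. Ranked as a whole, the 496 regions had a median lower percentile of 51.5, beside 49.2 for all 76125 distal regions.

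**Figure D4:**
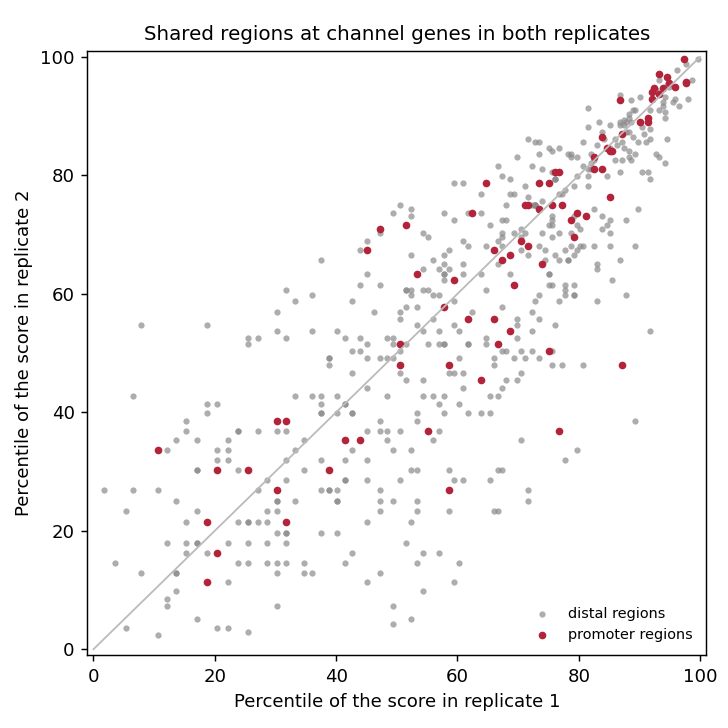
Score percentile in replicate 1 (x axis) against that in replicate 2 (y axis) for the promoter regions (red) and distal regions (grey) of the channel genes that both replicates share, with a line where both are equal. Points lie close to the line at the upper right and scatter widely at low percentiles.

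The central 150 bp of every region were searched for motifs, on either strand, and a match is a description of the sequence only. The AP-1 motif TGANTCA was in 82 of the 496 distal regions at channel genes (16.5%), beside 17.5% of all distal regions and 4.43% of flanks 1 kb downstream of all distal regions. The GC box GGGCGG was in 29 (5.85%), beside 4.92% of all distal regions, and the CRE motif TGACGTCA in 1 (0.202%), beside 0.470%. In the 75 promoter regions of channel genes centred within 1 kb of a start, the GC box was in 23 (30.7%), beside 31.2% of all such regions, AP-1 in 3 (4%), beside 6.94%, and CRE in 1 (1.33%), beside 1.34%. These shares are close to those of all regions. The region of Cacna1a at chr8:84501736-84501885 is shown, on the plus strand with AP-1 matches in capitals, because it is the highest distal region inside a channel gene with such a match. It holds 3 of them and no CpG.
Cacna1a: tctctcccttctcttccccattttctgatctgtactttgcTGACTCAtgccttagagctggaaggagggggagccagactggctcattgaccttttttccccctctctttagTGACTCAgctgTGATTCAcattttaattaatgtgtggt

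The RE1 motif, sought as its 17-base consensus with at most 1 mismatch, was in 3 of the 496 distal regions (0.605%, 95% Wilson interval 0.206 to 1.76), beside 0.152% of all distal regions (0.127 to 0.183) and 0.0841% of their flanks, and in none of the 75 promoter regions, beside 0.185% of all promoter regions. The share at channel genes rests on 3 regions, and without mismatch it was 1 region, beside 13 of all distal regions. With at most 2 mismatches it was 11 of the 496 regions, beside 1333 of all 76125 distal regions. In the windows as a whole there were 86 matches, of which 4 lay under peaks of both replicates and 6 under a peak of either. Some others lay in hotspots of both replicates but under no peak, such as a site in an exon of Scn3b (chr9:40269744-40269760, minus strand, 1 mismatch). RE1 sequences in these windows thus lay mostly outside called peaks. The same share over all genes was not counted, so it is not read as a trait of channel genes. The promoter of Rest itself was open, with scores of 110 and 93. The 6 sites under a peak of either replicate are shown with an exact site that lay under none, all in the orientation of the consensus and wholly in capitals because the whole site is the motif. The site in the Cacng2 intron (chr15:78066700-78066716, minus strand) has no mismatch and lay in a region that scored 52 and 39. That near Cacna1i (chr15:80277818-80277834, plus strand, 1 mismatch) lay in a region between genes with 46 and 51, and that near Scn3b, in an intron of Gramd1b (chr9:40301719-40301735, plus strand, 1 mismatch), in 1 with 74 and 51. The site in the Scn1a intron (chr2:66383845-66383861, minus strand, 1 mismatch) lay under peaks that scored 110 and 93, though off the centre of their region. The exact site upstream of Scn2a (chr2:65619964-65619980, plus strand) lay under a peak of replicate 2 only, with a score of 29, as did that in a Cacna1a intron (chr8:84471460-84471476, plus strand, 1 mismatch), with a score of 37. An exact site in a Scn10a intron (chr9:119706902-119706918, minus strand) lay under none. The sites of Scn2a and Scn10a have the same sequence.
Cacng2: TTCAGCACCTTGGAGAG
Cacna1i: ATCAGCACCACGGACAG
Scn3b: ATCAGAACCCCAGCCAG
Scn1a: TTCACAGCCTCAGCCAG
Scn2a: TTCAGCACCACGGACAG
Cacna1a: TTCAGCACGCTGGACAG
Scn10a: TTCAGCACCACGGACAG

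Genes whose proteins work with these channels, or are related to them, were counted the same way. Of 9 sodium channel partners, 7 were open, including Sptbn4, the spectrin of the axon initial segment, with scores of 148 and 138, Nfasc with 129 and 117, and Ank3, which encodes ankyrin-G, with 122 and 98. Cntn1 and Fgf13 had no promoter peak. Of 13 calcium channel partners, 10 were open. Rimbp2, which ties calcium channels to the release site, scored 140 and 116, and the calcium channel inhibitor Gem 137 and 126. Stac3, Cachd1 and Rims1 had no promoter peak, and Stac3 is known for coupling excitation to contraction in skeletal muscle. Of 9 related cation channel genes, 8 were open, from Tpcn1, a channel of endosomes and lysosomes, with 150 and 139, down to the sperm channel genes Catsper1 with 37 and 23 and Catsper4 with 35 and 34; Catsper3 had none. Together 25 of these 31 genes were open, beside the 59.5% of all protein-coding genes, and the list was chosen for this work with no test of its share.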

How the data were processed

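Peaks and hotspots of 2 DNase-seq libraries were deposited per library and not pooled, in mm10 coordinates per the labels. The authors' peak score is a whole number per peak, and for each hotspot they deposited the −log10 of a rate, from 1.30 to 100. The aligner and the caller were not given in the sources used here. Depth is unknown, and biological replicates are those named by the labels. The sequencing instruments are given for replicate 1 only.

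From these files, peaks on 21 main chromosomes were ranked within each list by the mid-rank percentile and merged across replicates where they overlapped by at least 1 bp. Gene models were GENCODE M21, and sequences were read from the RefSeq GRCm38 assembly, whose chromosome lengths hold all intervals. Genes given values were those with the highest lower percentile in each subunit class, those with peaks in 1 replicate, and those leading in distal regions. Values of some members are not reported here, though the counts include them. Members, lists, motifs and rules were chosen with earlier results of these data known. The steps were tested on simulated data. Alternatives changed the promoter window, start type, overlap, score and replicates. Wilson intervals cover counting error only. Python 3.11.15, numpy 2.4.6, pandas 2.3.3, scipy 1.17.1 and matplotlib 3.10.9 were used.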

Additional observations from a re-analysis of the deposited data

How the results depend on the processing

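The count of 26 open channel promoters lay between 20 and 29 under 9 alternatives, all within 1.5 times. Windows of 500 bp gave 23, without Cacna1a, Cacna1s and Cacna2d4, and windows of 2.5 kb gave 29, adding Cacna1f, Cacng6 and Scn4a. Either replicate alone gave 27. The hotspot count of 26 ran from 25 to 29. The median percentile of 83.3 became 86.3 with windows of 2.5 kb and 85.6 both with the stronger 50% of peaks and with coding starts only, an alternative chosen after seeing the data, and ran from 83.2 to 85.1 with each replicate left out, beside an SD over both replicates of 1.71. The 496 distal regions became 310 in gene bodies only and 260 with the stronger 50% of peaks, and 664 to 747 with each replicate left out, where no overlap is required. The other alternatives gave 461 to 684 distal regions, the most with flanks of 100 kb. The 3 distal regions with RE1 became 1 without mismatch and 11 with at most 2 mismatches. Of all 76125 distal regions, 13 had RE1 without mismatch and 1333 with at most 2 mismatches. At channel genes the number became 1 in gene bodies only, 1 with the stronger 50% of peaks, and 3 to 4 with each replicate left out. The cause of these shifts was not tested, beyond the fewer peaks or longer windows each setting leaves. No paired analysis was possible because there was 1 group only. Depth is unknown, so weak or absent peaks cannot be told from peaks under the calling threshold.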
